A study of Mus musculus with 12 samples.

Results

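The genes described here are Arg1, Nos2 and Acod1, 3 of the 754 endogenous genes of a NanoString nCounter Myeloid Innate Immunity Panel. They were chosen by name, from their counts across the groups of these samples, for what their enzymes do. Arg1 encodes arginase 1, which splits arginine into ornithine and urea. Nos2 encodes inducible nitric oxide synthase, which turns arginine into nitric oxide and citrulline. Acod1, also known as Irg1, encodes the mitochondrial enzyme that makes itaconate from the tricarboxylic acid cycle intermediate cis-aconitate.

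In mouse macrophages arginase 1 and inducible nitric oxide synthase draw on the same substrate and are textbook opposites. Interleukin-4 and interleukin-13 induce Arg1 through STAT6 in alternative activation, the state typical of worm-infected tissue, whereas interferons and bacterial products induce Nos2 and Acod1 through IRF1 and NF-kB in classical activation. Itaconate inhibits succinate dehydrogenase and dampens inflammatory output. RELMa (resistin-like molecule alpha, gene Retnla) is a secreted protein of alternatively activated macrophages, and the series measured what adding it does to lung myeloid cells.

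The cells came from RELMa-/- mice infected with 500 Nippostrongylus brasiliensis larvae, a nematode that passes through the lung, and killed on day 10. All 4 groups share that genotype and infection. CD11c+ cells were sorted from dissociated lungs, cultured overnight, starved in 1% serum and given 500 ng/ml recombinant RELMa (rRELMa) or PBS for 4 h. The groups, of 3 samples each, were run 2 rRELMa, run 2 PBS, run 1 rRELMa and run 1 PBS. How the 2 runs differ is not stated, and neither is the source (animal or culture) of each numbered replicate. Errors and p-values therefore cover replicate spread that can be purely technical.

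Run 2 samples held 411169 to 765719 endogenous counts and run 1 samples 179719 to 257415. Per positive-control count, run 2 samples had 6.76 to 9.32 endogenous counts and run 1 samples 1.39 to 1.88. Itgax, the gene for CD11c, was above the background limit (the mean plus 2 SD of the 8 negative-control probes of a sample) in 12 of 12 samples. The deleted gene, Retnla, was above it in 0 of 12 samples, at 5 to 18 raw counts, although a probe outside the deleted segment would check nothing and the probe's position is not stated. No marker of group 2 innate lymphoid cells (6 on the panel) or of T, B and NK cells (4) reached a mean of 20 counts. Scaled counts below are raw counts after TMM scaling over the 415 tested genes, and counts of different probes do not rank genes.

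Acod1 was the 1 of the 3 genes with a promoter window in the RefSeq table, and its sequence is shown because the factors named above act at such regions. The window runs from 250 bases before to 50 bases after the gene start, on the + strand of GRCm38.p6 at chr14:103046762-103047061. Capitals mark the 2 motif matches found.
Acod1: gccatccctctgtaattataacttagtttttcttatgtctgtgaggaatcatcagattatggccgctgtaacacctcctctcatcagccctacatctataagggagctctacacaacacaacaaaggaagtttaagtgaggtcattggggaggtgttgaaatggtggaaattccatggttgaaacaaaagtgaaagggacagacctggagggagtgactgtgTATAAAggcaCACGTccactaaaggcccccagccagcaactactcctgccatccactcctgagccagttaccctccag
The first match, to the letters TATAAA of the box that positions the transcription start at many genes, was searched on the coding strand alone. It lay at -28 to -23 from the gene start and is in 8.32% of 32851 mouse windows of this length. The second, CACGT, is the core of a HIF response element (ACGTG, searched on both strands) on the opposite strand at -18 to -14, and 19.6% of windows hold it. No match was present on either strand for the STAT6 motif TTCNNNNGAA (6.95% of windows), the interferon-stimulated response element GAAANNGAAA (3.44%), the C/EBP motif TTGCNNAA (10.8%), the AP-1 motif TGANTCA (7.81%) or the NF-kB motif (8.46%). The 2 matches do not overlap, and the absence of such letters from the window says nothing of binding elsewhere.

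Arg1 was lower in rRELMa samples than in PBS samples of the same run. In run 2 the raw counts were 33, 29 and 27 in rRELMa samples, against 44, 45 and 26 in PBS samples. After scaling they were 20.5, 20.4 and 19.2 in rRELMa samples, against 30.3, 29.1 and 29 in PBS samples. The raw counts overlap through the PBS sample with 26, which had the lowest total of run 2 (411169), and the scaled counts do not overlap. In run 1 the raw counts were 78, 95 and 84 in rRELMa samples, against 133, 139 and 150 in PBS samples. Scaled, they were 141, 138 and 174 in rRELMa samples, against 237, 207 and 212 in PBS samples, with no overlap on either scale.

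As group means, Arg1 had 20 ± 0.696 scaled counts in run 2 rRELMa and 29.5 ± 0.729 in run 2 PBS, and 151 ± 20 in run 1 rRELMa and 219 ± 16 in run 1 PBS (SD, n = 3 each). With the run as a block, the log2 fold change of rRELMa over PBS was -0.55 (SE 0.10), a level 31.6% lower, and the largest absolute log2 fold change among the 415 tested genes. It was -0.55 (SE 0.19) in run 2, where its absolute size ranked 5, and -0.55 (SE 0.12) in run 1, where it ranked 8. The difference between these effects was -0.01 (SE 0.23). In run 2 the raw counts were 1.22 to 1.49 times the background limit in rRELMa samples and 1.61 to 2.11 times in PBS samples, so the lower level there lay just above background. With the negative-control mean subtracted before scaling, Arg1 was 13.6, 12 and 11.7 in run 2 rRELMa, against 21.4, 21.9 and 20.5 in run 2 PBS.

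**Figure D1:**
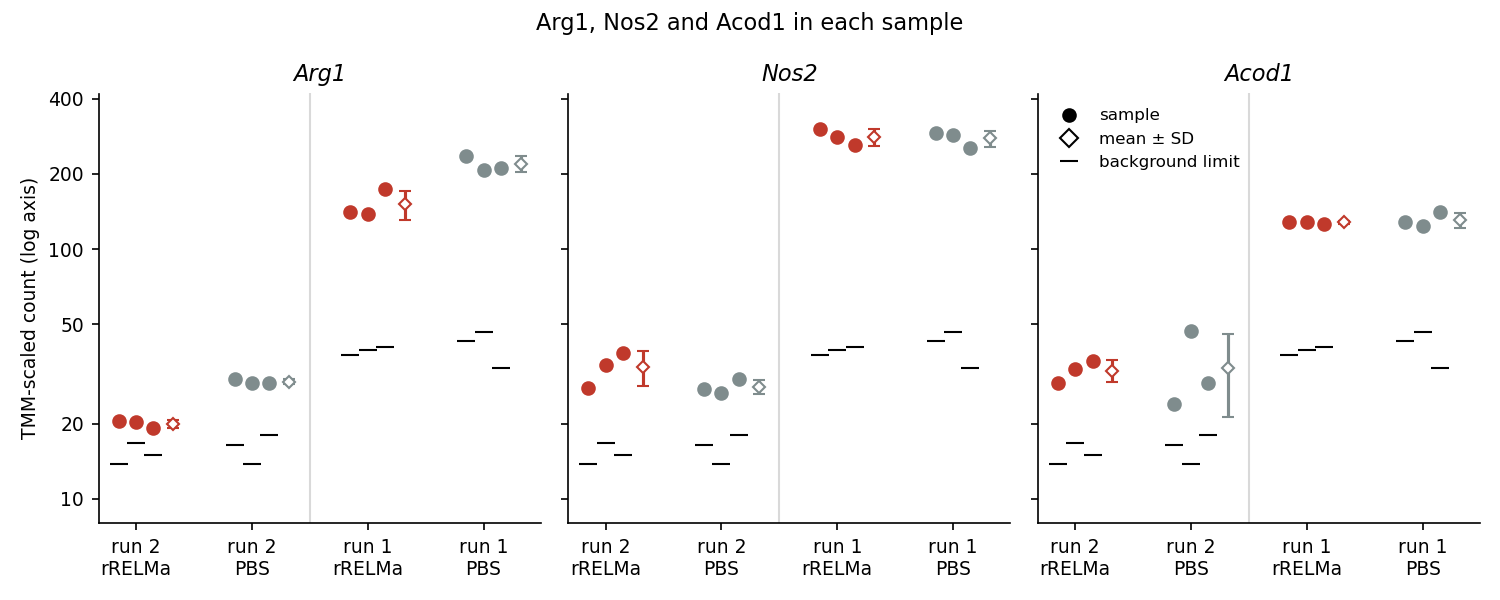
Scaled counts (TMM, log axis) of Arg1, Nos2 and Acod1 in each of the 12 samples by group, with the mean ± SD (n = 3, open diamonds) and each sample's scaled background limit (black dashes). Arg1 is lower in every rRELMa sample than in every PBS sample of its run, the other 2 genes overlap between treatments, and all 3 sit lower and nearer the limit in run 2.

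The edgeR quasi-likelihood test called 1 gene lower in rRELMa over both runs, 0.241% of the tested genes, and that gene was Arg1. Of 23 alternatives, the fit without the run was the 1 in which Arg1 was not called. Within run 2 it called 0 genes lower (0%), with 31 genes at an unadjusted p under 0.05 in either direction, and limma and DESeq2 also called 0. Within run 1 it called 1 gene lower (0.241%), again Arg1. The rRELMa samples were all below the PBS samples for 6.02% of the tested genes in run 2, for 4.82% in run 1 and for 0.241% in both runs, which is Arg1 alone. As the genes were chosen from these contrasts, the calls and ranks of Arg1 describe the values that chose it and are no support. Nothing is read from the counts of the genes against these shares. The run 1 call was lost with library totals, with the reference genes, without the count filter, with limma, with DESeq2, and when any of 6 of the 12 samples was left out (rRELMa replicate 1 or 2 or PBS replicate 1 or 2 of run 1, rRELMa replicate 1 or 3 of run 2), and the log2 fold change was -0.69 to -0.52 over all 12 omissions.

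Nos2 differed little between treatments. In run 2 the scaled counts were 27.9, 34.5 and 38.5 in rRELMa samples, against 27.5, 26.5 and 30.1 in PBS samples. In run 1 they were 303, 280 and 261 in rRELMa samples, against 292, 286 and 254 in PBS samples. The groups overlap in both runs, although in run 2 the raw counts (45, 49 and 54 in rRELMa samples, against 40, 41 and 27 in PBS samples) and counts scaled to the positive controls do not. The log2 fold change was 0.09 (SE 0.09) over both runs, 0.27 (SE 0.18) in run 2 and 0.02 (SE 0.11) in run 1, and the difference between the runs' effects was 0.24 (SE 0.21).

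Acod1 also overlapped between treatments. In run 2 the scaled counts were 29.1, 33.1 and 35.6 in rRELMa samples, against 24.1, 47.2 and 29 in PBS samples. The PBS sample at 47.2, replicate 2, had 73 raw counts where the other PBS samples had 35 and 26. In run 1 the scaled counts were 128, 129 and 126 in rRELMa samples, against 128, 124 and 141 in PBS samples. The log2 fold change was -0.05 (SE 0.12) over both runs, -0.08 (SE 0.20) in run 2 and -0.04 (SE 0.16) in run 1. Without PBS replicate 2 of run 2, the run 2 value was 0.32, so its sign rests on 1 sample.

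**Figure D2:**
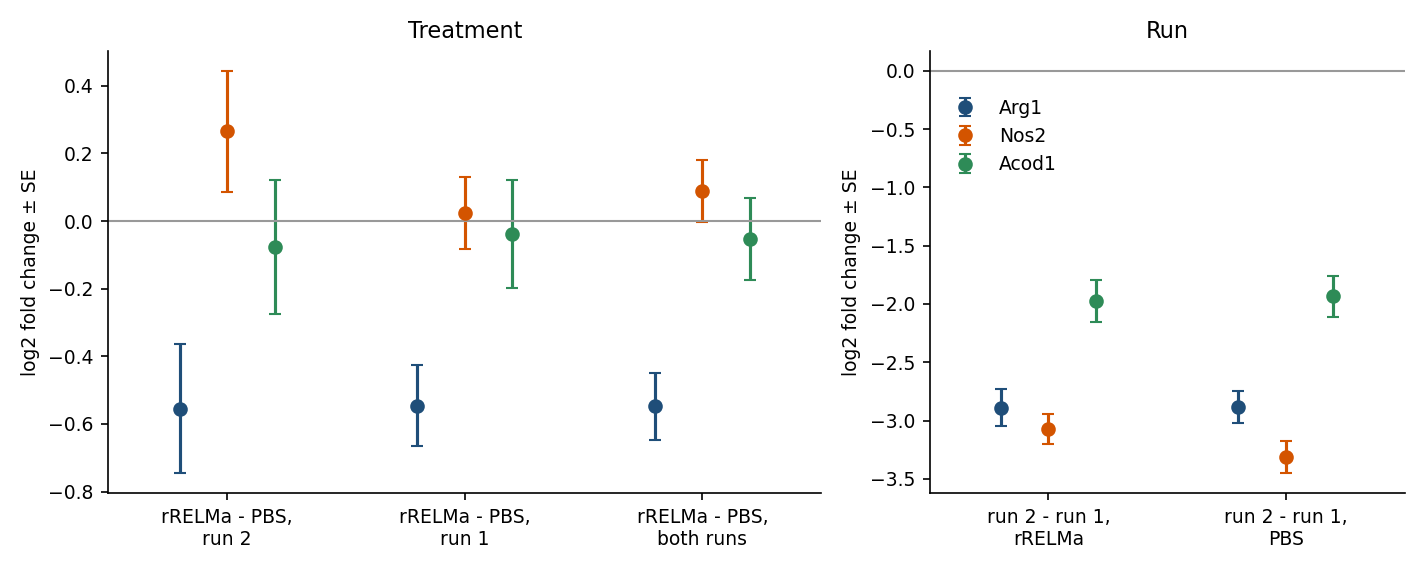
Log2 fold change ± SE of the 3 genes for rRELMa minus PBS (left: run 2, run 1 and both runs with the run as a block) and for run 2 minus run 1 (right: rRELMa and PBS samples). Arg1 lies at -0.55 in each treatment contrast, Nos2 and Acod1 lie within 0.27 of 0, and all 3 lie between -3.31 and -1.94 between runs. The vertical axes differ.

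All 3 genes had lower levels in run 2 samples than in run 1 samples, by far more than between treatments. Nos2 had 33.6 ± 5.34 scaled counts in run 2 rRELMa against 281 ± 21.4 in run 1 rRELMa, and 28.1 ± 1.85 in run 2 PBS against 278 ± 20.6 in run 1 PBS (SD, n = 3 each). Acod1 had 32.6 ± 3.27 in run 2 rRELMa against 128 ± 1.47 in run 1 rRELMa, and 33.4 ± 12.2 in run 2 PBS against 131 ± 9 in run 1 PBS (SD, n = 3 each). No run 2 sample reached a run 1 sample for any of the 3 on the TMM scale. In lysates of sorted cells, fewer cells of a type and less RNA per cell cannot be told apart, and run and any other difference between the runs' cells or assays cannot be told apart either.

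In PBS samples the log2 difference of run 2 minus run 1 was -3.31 (SE 0.14) for Nos2, -2.88 (SE 0.14) for Arg1 and -1.94 (SE 0.17) for Acod1, or levels 0.101, 0.136 and 0.261 times those of run 1. In rRELMa samples it was -3.07 (SE 0.13) for Nos2, -2.89 (SE 0.16) for Arg1 and -1.97 (SE 0.18) for Acod1. The 2 arginine-using enzymes, opposites in the textbook, were lower in run 2 together. By absolute size the PBS differences ranked 7 (Nos2), 11 (Arg1) and 26 (Acod1) of 415, where the median absolute difference of all tested genes was 0.46. The edgeR test called 35.9% of tested genes lower in run 2 in PBS samples and 33.5% in rRELMa samples, the 3 genes among them in both. All run 2 samples lay below all run 1 samples for 35.9% of genes in PBS and 34.9% in rRELMa, again including the 3, and nothing is read from that since their levels chose them.

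The size of the run difference depended on the scaling. Scaled to the positive controls, which moved the median of all tested genes to 1.59 in PBS and 1.91 in rRELMa, the log2 differences in PBS were -1.69 for Nos2, -1.26 for Arg1 and -0.31 for Acod1, and in rRELMa they were -1.12, -0.94 and -0.02. On that scale Acod1 overlapped between runs in both treatments. With library totals or the reference genes all 3 differences were larger than with TMM, for instance -3.20 and -3.18 for Arg1 in PBS. Relative to the median of all tested genes, the 3 genes were lower in run 2 under every scaling run.

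**Figure D3:**
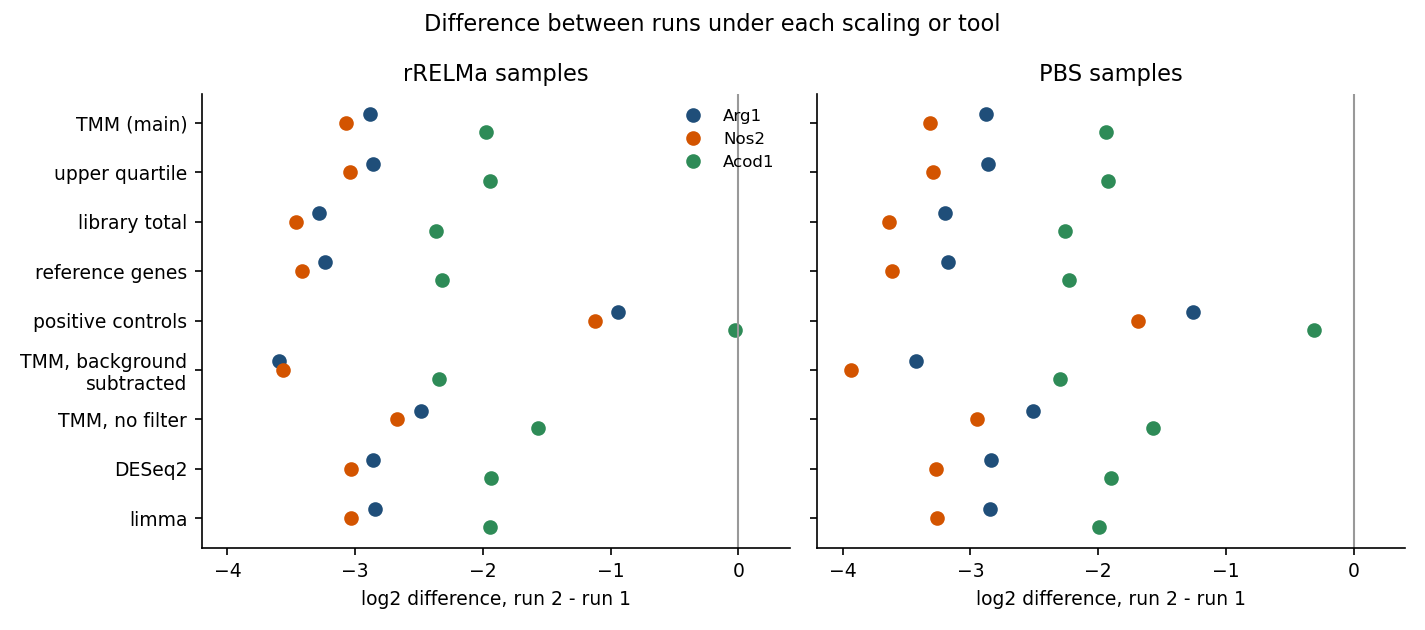
Log2 difference of run 2 minus run 1 for the 3 genes in rRELMa samples (left) and PBS samples (right) under each scaling, filter or tool. All values are below 0, from -3.93 for Nos2 with background subtracted in PBS to -0.02 for Acod1 with positive-control scaling in rRELMa.

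Across the 12 samples, likeness of pattern was measured as the root mean square difference of log2 scaled counts (count plus 1), each centred on its mean, over the 414 other tested genes. Nearest to Arg1 were the interferon-inducible antiviral gene Mx1 (0.363), the chemokine gene Ccl5 (0.365) and the costimulator gene Cd86 (0.387), where the median over all genes was 1.45. From Arg1, Nos2 ranked 6 (0.407) and Acod1 ranked 15 (0.567). Mx1 had 10 ± 2.25 scaled counts in run 2 rRELMa against 15.7 ± 1.56 in run 2 PBS (SD, n = 3 each), where the scaled background limits of run 2 were 13.8 to 18. Nearest to Nos2 were the formyl peptide receptor gene Fpr2 (0.289), Ccl5 (0.384) and Cd86 (0.398), followed by Arg1. Among the 3 genes nearest to Acod1 were the interleukin-1 antagonist gene Il1rn (0.224) and the immunoproteasome subunit gene Psmb9 (0.225), while Arg1 ranked 49 (0.567) and Nos2 ranked 65 (0.643). The 12 samples share 2 runs, so these distances describe the libraries and are no test.

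The panel held few other genes of the same pathways, and neither Gch1 nor Cybb, described here, passed the test with rRELMa. Of 22 listed genes of arginine, nitric oxide and polyamine metabolism, 3 were on the panel. Gch1, whose enzyme makes the tetrahydrobiopterin that nitric oxide synthases need, had a mean of 31.3 raw counts and a log2 fold change of -0.28 for rRELMa over PBS (SE 0.17, edgeR adjusted p = 0.693) and of -0.33 for run 2 over run 1 in PBS (adjusted p = 0.222). Its run difference was -0.65 with library totals and 1.29 with positive controls, and passed the test in each. On those scales the medians of all tested genes were -0.35 and 1.59. Gch1 was above the background limit in 1 of 3 samples of each run 1 group. Oaz1, the polyamine-dependent ornithine decarboxylase antizyme, is a reference gene of the panel (mean 1600 raw counts), and Ido1, the tryptophan-degrading dioxygenase, averaged 7.83, below the count minimum. Of 27 listed genes of itaconate, the tricarboxylic acid cycle and redox partners, 3 were on the panel. They include Sdha, the succinate dehydrogenase subunit (mean 255 raw counts, a reference gene), and Cybb, the catalytic subunit of the phagocyte NADPH oxidase (mean 2100). With rRELMa, Cybb had a log2 fold change of -0.01 (SE 0.05, edgeR adjusted p = 0.993). Between runs in PBS Cybb passed the test as higher in run 2, by 0.30 (edgeR adjusted p = 0.000361). With library totals it did not pass, at -0.02 against the median of -0.35.

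Signals that induce the enzymes were described next. The genes for interleukin-4, interleukin-13, interleukin-6, interleukin-10, GM-CSF (Csf2), interferon-gamma and interferon-beta were each above the background limit in 0 of 12 samples, with means from 3.92 raw counts for Il4 to 14.5 for Il13. Of the 16 tested genes known to act on Arg1, 0 passed the test with rRELMa (median log2 fold change 0.03, against 0.01 for all tested genes). The 4 with the smallest p were Jak3, a kinase of the interleukin-4 receptor (0.19), the interleukin-6 receptor gene Il6ra (0.16), the STAT6 partner Klf4 (0.11) and Tgfb1 (0.05), with edgeR adjusted p of 0.772 to 0.833. Of the 21 tested genes known to act on Nos2 and Acod1, 0 passed (median 0.01). Among them were the endosomal DNA receptor Tlr9 (0.32), the lipopolysaccharide receptor Tlr4 (0.20), the transcription factor Irf1 (0.18) and the TNF receptor Tnfrsf1a (-0.08), with edgeR adjusted p of 0.634 to 0.684. Jak3 and Tlr9 were each above the background limit in 1 of 3 run 1 PBS samples.

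Between runs in PBS, 5 of the 16 genes acting on Arg1 were higher in run 2 and 7 lower, with a median of -0.25 against -0.03 for all tested genes. Over all 415 tested genes 29.9% were higher and 35.9% lower, so counts near these shares are not a result about a list, and those of the Arg1 factors lay near them. Il21r, which amplifies alternative activation, had 48 ± 2.68 scaled counts in run 2 PBS against 107 ± 12.6 in run 1 PBS (SD, n = 3 each, log2 difference -1.16, edgeR adjusted p = 3.73e-08). Hif1a, the hypoxia factor, differed by -0.54 (adjusted p = 4.16e-08), while Tgfb1 differed by 0.49 (adjusted p = 6.13e-08) and the lipid-sensing receptor Pparg by 0.82 (adjusted p = 1.98e-06), all in edgeR. The transcription factor Stat6 itself was higher in run 2 PBS, at 340 ± 4.37 against 255 ± 2.77 in run 1 PBS (SD, n = 3 each), and the receptor gene Il4ra was lower, at 158 ± 19.6 against 239 ± 22.1. Stat6 and Il4ra were named after their values were seen. With positive-control scaling 15 of the 16 were higher and 0 lower (median 1.37, against 1.59 for all tested genes, of which 366 were higher), with Il21r at 0.47 and Hif1a at 1.08. With library totals 2 were higher and 10 lower (median -0.57, against -0.35 for all tested genes, of which 64 were higher and 217 lower).

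Of the 21 genes acting on Nos2 and Acod1, 2 were higher and 12 lower in run 2 PBS (median -0.51), beside 29.9% higher and 35.9% lower of all tested genes. In rRELMa samples 2 were higher and 9 lower (median -0.24), beside 29.9% higher and 33.5% lower of all tested genes. For the 16 genes acting on Arg1, 3 were higher and 7 lower there (median -0.32). Some lower calls in PBS lay at background in run 1, the group where they were higher. Tlr3 was above the background limit in 0 of 3 run 1 PBS samples, and Tlr9, Nfkbiz and, among the Arg1 factors, Jak3 in 1 of 3 each. In run 2 PBS, Tlr3 was above it in 2 of 3 samples and the others in 3 of 3, so no lower level is read from these calls. Irf7, the interferon-response factor, had 135 ± 16.7 scaled counts in run 2 PBS against 2040 ± 84 in run 1 PBS (SD, n = 3 each, log2 difference -3.89, edgeR adjusted p = 1.78e-24). The lipopolysaccharide co-receptor Cd14 differed by -1.77 (edgeR adjusted p = 7.98e-16). With positive-control scaling 18 of the 21 were higher and 1 lower (median 1.11, still under the 1.59 of all tested genes, of which 366 were higher and 20 lower). On that scale Irf7 was at -2.27, and Cd14 at -0.15 did not pass the test (edgeR adjusted p = 0.33).

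Genes of the 2 activation states to which the enzymes belong gave 0 calls with rRELMa. Of 17 alternative activation genes besides Arg1, the median log2 fold change was 0.07, with the mannose receptor gene Mrc1 at 0.09, the eosinophil attractant Ccl24 at 0.13, the prostaglandin synthase gene Ptgs1 at 0.18 and the fatty acid transporter gene Cd36 at -0.09 (edgeR adjusted p 0.654 to 0.703). Of 16 classical activation genes besides Nos2 and Acod1, the median was 0.05, with the chemokine genes Ccl3 at 0.36 (edgeR adjusted p = 0.245) and Cxcl9 at -0.24 (adjusted p = 0.654), the scavenger receptor gene Marco at 0.07 and Cd86 at 0.11. Cxcl9 was above the background limit in 0 of 3 samples of each run 2 group. In run 1 PBS, Ccl3 was above it in 1 of 3 samples and Ptgs1 in 0 of 3. Tnf, Hif1a, Chil3, Mrc1, Marco and Pparg are among the genes that sit in more than 1 list.

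Between runs, genes of both activation lists passed the test. In PBS, 10 of the 17 alternative activation genes were higher in run 2 and 3 lower (median 0.46), where 29.9% of all tested genes were higher and 35.9% lower, while Arg1 had a lower level. Mrc1 had 689 ± 55.2 scaled counts in run 2 PBS against 176 ± 5.43 in run 1 PBS (SD, n = 3 each, log2 difference 1.98, edgeR adjusted p = 4.24e-18). Cd36 differed by 1.53, the elastase gene Mmp12 by 1.48 and the lipid receptor gene Trem2 by 1.15 (edgeR adjusted p of 2.1e-14 or less). The 3 lower calls, given for the other direction, were Ccl24 (-1.45), Clec7a (-0.695) and Pdcd1lg2 (-0.625), with edgeR adjusted p of 0.013 or less. Of the 16 classical activation genes, 4 were higher and 11 lower in run 2 PBS (median -0.66), beside the same shares. Fpr2 had 30 ± 5.05 scaled counts in run 2 PBS against 246 ± 38 in run 1 PBS (SD, n = 3 each, log2 difference -3.00), and Ccl5 differed by -2.51 and Cd86 by -2.44 (edgeR adjusted p of 1.2e-16 or less). Cxcl9 had 7 ± 1.75 scaled counts in run 2 PBS against 122 ± 14.4 in run 1 PBS (SD, n = 3 each). It was above the background limit in 0 of 3 samples in run 2 PBS and passed the count filter through run 1, so the size of its difference is not given. Cxcl10 among the lower calls, Il12b and Socs3 among the higher classical calls and Ptgs1 among the alternative ones likewise had no sample above the limit in the group where they were lower. The remaining higher classical calls were Ccl3 (log2 difference 1.18) and Il1a (0.36), with edgeR adjusted p of 0.0207 or less. In run 1 PBS, Ccl3 was above the limit in 1 of 3 samples and Il1a in 3 of 3.

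In rRELMa samples the same lists gave 11 higher and 3 lower (median 0.58) and 3 higher and 11 lower (median -0.998) in run 2, where 29.9% of all tested genes were higher and 33.5% lower. Among these calls Cdh1, Socs3, Cxcl10, Cxcl9 and Ptgs2 had no sample above the background limit in the group where they were lower. They passed the count filter through the other run. In PBS the alternative activation median was positive under each of the 5 scalings, at 0.14 with library totals (7 higher and 6 lower) and 2.07 with positive controls (16 higher and 0 lower). The classical activation median was -0.98 with library totals (2 higher and 12 lower) and 0.96 with positive controls (9 higher and 6 lower), under the 1.59 of all tested genes on that scale. Over all tested genes 64 were higher and 217 lower with library totals (median -0.35), and 366 and 20 with positive controls. With positive controls Ccl5 was at -0.89, Cd86 at -0.82 and Fpr2 at -1.38.

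**Figure D4:**
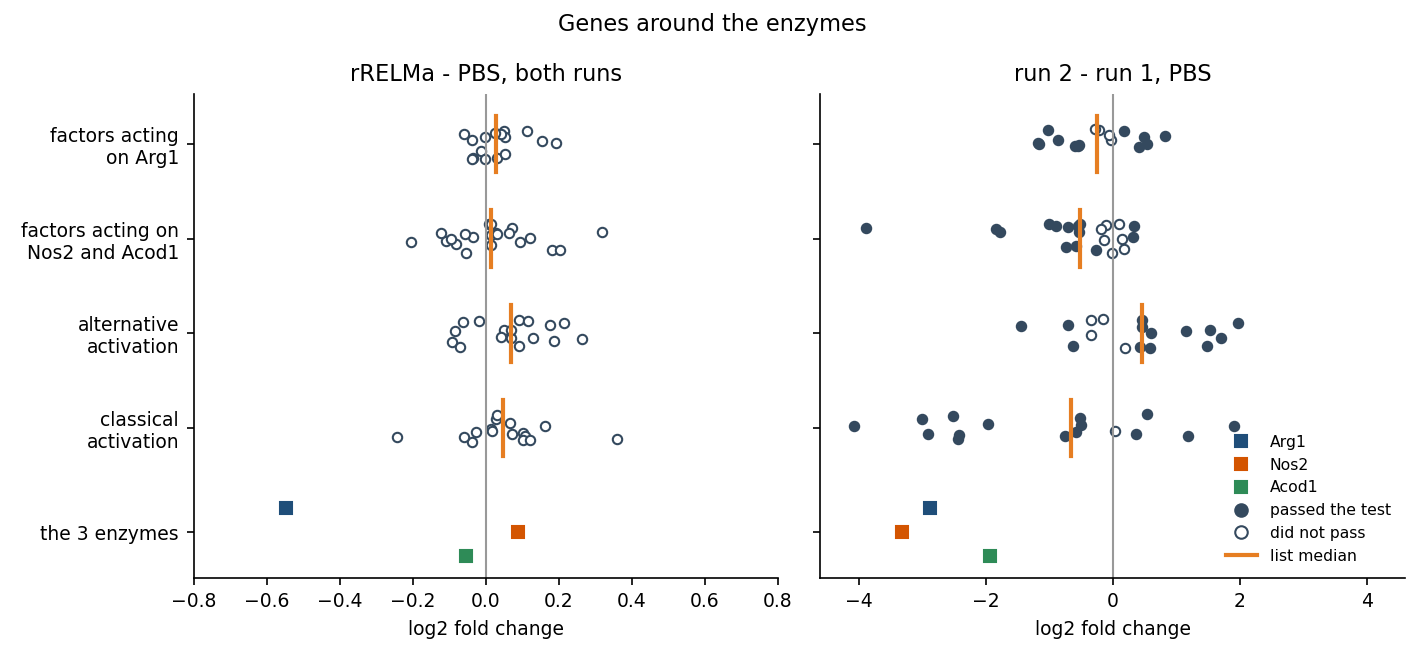
Log2 fold changes of tested genes in the lists around the enzymes (circles, filled where edgeR's adjusted p was under 0.05), with each list's median (orange line) and the 3 enzymes (squares), for rRELMa minus PBS with the run as a block (left) and run 2 minus run 1 in PBS (right). With rRELMa no listed gene passed and the medians lie between 0.01 and 0.07. Between runs the medians run from -0.66 for classical activation to 0.46 for alternative activation, and the horizontal axes differ.

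Markers of lung cell types also differed between runs, in which 29.9% of all tested genes were higher and 35.9% lower in PBS. The 9 alveolar macrophage markers summed to 141000 to 142000 scaled counts in run 2 PBS samples, against 85000 to 94300 in run 1 PBS samples, and 7 of 9 passed the test as higher in run 2 and 0 as lower. Most of that sum was the chitinase-like gene Chil3 (103000 ± 1810 in run 2 PBS, against 74700 ± 4540 in run 1 PBS) and the protease gene Ctsd (35300 ± 1080 against 13500 ± 513, SD, n = 3 each). The other 7 markers summed to 3030 to 3140 in run 2 PBS samples, against 1480 to 1560 in run 1 PBS samples. The 12 tested markers of interstitial macrophages and monocytes, of 15 on the panel, had 1 higher and 7 lower, and the 15 summed to 2660 to 2890 in run 2 PBS samples against 3510 to 3830 in run 1 PBS samples. Of the tested ones, Ly6c1 was above the background limit in 0 of 3 run 2 PBS samples and passed the count filter through run 1. Of the 10 tested dendritic cell markers, of 12 on the panel, 5 were higher and 1 lower in run 2 PBS, and the 12 summed to 1140 to 1420 in run 2 PBS samples against 786 to 1010 in run 1 PBS samples. Among neutrophil markers 2 of 10 were tested, and both were above the background limit in 12 of 12 samples, while the defining gene Ly6g averaged 4.92 raw counts. Of these 2, the collagenase gene Mmp8 was higher in run 2 PBS, at 531 ± 70.9 against 247 ± 18.9 in run 1 PBS, and the calprotectin gene S100a8 was lower, at 208 ± 11.3 against 326 ± 48.8 (SD, n = 3 each). The 6 markers of group 2 innate lymphoid cells had 0 group means above the background limit. The part of these markers in the run difference of Arg1, Nos2 and Acod1 was not tested. With positive controls the interstitial and monocyte median was 0.83, under the 1.59 of all tested genes, as the TMM median of -0.78 was under -0.03, and with library totals the dendritic cell median, 0.27 with TMM, was -0.05 against -0.35 for all tested genes. With rRELMa 0 markers of any list were called. The alveolar sums were 144000 to 151000 in run 2 rRELMa samples against 141000 to 142000 in run 2 PBS samples, and 84400 to 92600 in run 1 rRELMa samples against 85000 to 94300 in run 1 PBS samples. Their part in the lower Arg1 level of rRELMa samples was not tested.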

How the data were processed

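mRNA was measured in 12 samples with the NanoString nCounter XT assay, in which barcoded probes are counted singly without sequencing, on lysate of about 5000 cells, per the labels' protocols. The values the authors deposited are raw counts for 768 probes: 754 endogenous genes, 6 positive and 8 negative controls. That unit was read from the values, which are whole numbers with unequal totals. The sources used here do not give the counting software or quality checks. Serum starvation was 1 h in the growth protocol and 2 h in the design text.

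Groups came from the titles. The 12 replicate pairs differed by more than counting noise (chi-square over its degrees of freedom 1.55 to 3.25), so each sample was counted once. Control probes and 20 reference genes were left out, and genes with a mean raw count of at least 20 were tested (415). edgeR 4.0.16 (quasi-likelihood test, TMM, R 4.3.3) fitted treatment and run as additive terms, and 1 coefficient per group for comparisons within runs and treatments. A gene was called at a Benjamini-Hochberg adjusted p under 0.05. Alternatives changed scaling, filter, background, tool (DESeq2 1.42.0, limma 3.58.1 with a pseudocount of 1), covariates and samples. The test was checked on simulated data.

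The genes and lists were chosen with earlier results of these data known, so the 3 genes get no p-value. Named list genes are all measured genes of the 2 metabolic lists and, for each other list, up to 4 with the smallest unadjusted p for rRELMa and for the run in PBS. For likeness, the 3 nearest genes were taken. Some genes and motifs these rules take are not reported here. Promoter sequence is from RefSeq (GRCm38.p6), and motifs were searched in 32851 windows. The precision of a count is limited by counting error, and a difference within run 2 rests on counts near background.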

Additional observations from a re-analysis of the deposited data

How the results depend on the processing

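For rRELMa against PBS over both runs, Arg1 kept its sign in 23 of 23 alternatives (log2 fold change -0.67, with the negative controls subtracted, to -0.53) and was called in 22. The exception was the fit without the run, with 0 genes called (4 at an unadjusted p under 0.05). These refits reuse the 12 samples from which Arg1 was chosen, so they describe its values and are no support. Without the count filter 2 genes were called, Arg1 and Fcnb (mean 4.75 raw counts, at background). In run 1 the count was 0 with library totals, reference genes, no filter, DESeq2 and limma, 2 with negative controls subtracted (Arg1 and Btg2), and 0 to 1 leaving out 1 sample. With positive controls the run 1 values were -0.72 for Arg1 and -0.15 for Nos2, the run 2 values were -0.40 and 0.41, and the differences of effects were 0.32 for Arg1, 0.57 for Nos2 and 0.29 for Acod1. With negative controls subtracted Arg1 was at -0.79 in run 2 and its difference of effects at -0.17. Leaving out 1 sample, Arg1 in run 1 was -0.69 to -0.52 and its difference of effects -0.055 to 0.12 (highest without run 1 rRELMa replicate 3), and Acod1 in run 2 was -0.31 to 0.32 and its difference -0.27 to 0.36 (highest without run 2 PBS replicate 2). The cause of the shifts with negative controls subtracted or with 1 sample left out was not tested.

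In PBS, run 2 against run 1 gave Arg1 -3.20 (library totals), -3.18 (reference genes), -1.26 (positive controls), -2.51 (no filter) and -3.43 (negative controls subtracted). In the same order Nos2 gave -3.63, -3.61, -1.69, -2.95 and -3.93, and Acod1 -2.26, -2.23, -0.31, -1.57 and -2.30, with -2.33 to -1.71 leaving out 1 sample. In rRELMa Arg1 gave -3.28, -3.24, -0.94, -2.49 and -3.60 (-2.92 to -2.75 leaving out 1 sample), Nos2 -3.47, -3.42, -1.12, -2.67 and -3.57, and Acod1 -2.37, -2.32, -0.024, -1.57 and -2.35. Without the filter 414 genes were called in PBS and 420 in rRELMa, and with positive controls 395 in rRELMa, against 273 and 263 with TMM. Dropping the filter adds genes with a mean under 20 raw counts to the test. Among the added genes is Retnla, above the background limit in 0 of 12 samples. Its scaled counts were still lower in run 2 PBS, at 9.75 ± 2.37 against 17.7 ± 1.71 in run 1 PBS (SD, n = 3 each). The counts of calls without the filter are therefore not read as a wider run difference. Calls split 124 higher and 149 lower in PBS with TMM, 64 and 217 with library totals, 63 and 206 with reference genes, and 366 and 20 with positive controls. In rRELMa the splits were 124 and 139, 58 and 245, 58 and 228, and 380 and 15. List medians moved with the scaling, as given for the lists, and with positive controls the run difference of both factor lists and of classical activation turned positive, though under the 1.59 (PBS) and 1.91 (rRELMa) of all tested genes.

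Same-numbered samples of a run did not deviate together (correlation -0.08 to -0.03), so the numbers are not taken as pairs. Between unlike numbers the correlations were -0.13 to 0.19, and rRELMa 1 with PBS 2, 2 with 3 and 3 with 1 were positive in both runs (0.12 to 0.19), which the labels do not account for. With the replicate block, 1 gene was called over both runs (Arg1), 1 in run 1 (Arg1), 0 for the difference of effects, and 1 in run 2, Chil4 (log2 fold change 0.17, edgeR adjusted p = 0.0123). That block joins same-numbered samples of a run, the pairing not taken here, so its calls are given as a check alone. A block of the unlike numbers was not fitted. Chil4 was also the 1 gene called in run 2 when its groups were fitted alone. The runs hold separate numbers, so run 2 against run 1 allows no such block. In run 2, raw counts of 1.22 to 2.11 times the background limit bound what Arg1 can show.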

Other observations

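The spread of Arg1 within run 2 was smaller than counting error alone gives. Its scaled counts had a coefficient of variation of 3.48% in rRELMa samples, where raw counts of 27 to 33 give 18.4%, and of 2.48% in PBS samples, where 16.2% comes from counting. The ratios of SD to counting error were 0.189 and 0.153. Of the 85 tested genes with a run 2 mean of 20 to 60 raw counts, 52 had an SD below counting error in rRELMa samples, 49 in PBS samples and 31 in both, and Arg1 was the 1 gene with both ratios at or below its own. This comparison was chosen after the values were seen, and with 3 samples a group an SD is itself uncertain, so the small SDs of Arg1 in run 2 do not measure the precision of its level.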
